A study of Mus musculus with 25 samples.

Results

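The genes described here encode the nuclear subunits of the mitochondrial respiratory chain and ATP synthase, together with close relatives that share their symbols. They were taken by symbol: rows starting with Nduf, Sdha to Sdhd, Uqcr, Cox4 to Cox8 or Atp5, without pseudogenes and without Cox7a2l, and with a mean of at least 10 scaled counts. Of the 16220 genes listed, 94 matched, and all 94 reached that mean. They comprised 75 subunits found in most tissues, with 36 in complex I, 4 in complex II, 8 in complex III, 11 in complex IV and 16 in complex V. The other members were 6 tissue isoforms and 13 assembly factors or related genes. Ndufa4 was counted in complex IV, where its protein resides. The subunits encoded in mitochondrial DNA were not analysed here.

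The respiratory chain passes electrons from NADH (complex I) and succinate (complex II) through complex III to oxygen at complex IV. Complexes I, III and IV pump protons across the inner mitochondrial membrane, and complex V, the ATP synthase, uses the return flow to make ATP. Sensory neurons of the dorsal root ganglia, which carry touch, temperature and pain from the body, depend on this supply along very long axons.

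RNA was sequenced from dorsal root ganglia of 25 BXD strains, inbred lines derived from crossing C57BL6/J with DBA2/J mice. The animals were 8 weeks old, no treatment is named, and each strain had 1 library. The strain names end in TyJ in 16 strains and in RwwJ in 9, the only labelled difference besides the strain. Neither the number nor the sex of the animals is stated in the labels, and the spread between strains holds genotype, animal, dissection and library together. Values are read counts that the authors scaled to a common upper quartile, called scaled counts below. They summed to 24637919 in BXD55 and 26860283 in BXD36, the lowest and highest totals. The depth before scaling is unknown from these values. Pan-neuronal markers, all 7 measured, summed to between 252299 and 358750 scaled counts per library, whereas 12 skeletal muscle markers summed to between 453 and 53841. In whole tissue, fewer cells of a type and less RNA per cell cannot be told apart.

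Subunit transcripts were abundant. Per kilobase of annotated exon, Cox6a1, a complex IV subunit, stood at 16079 scaled counts, the highest of the members. The structural complex IV subunits Cox6b1, at 15359, and Cox8a, at 14598, followed it. In the other complexes the highest levels per kilobase were 8982 for Atp5a1, the alpha subunit of the ATP synthase catalytic head, 7311 for Uqcr10 of complex III, 6647 for Ndufa2 of complex I, and 3792 for Sdhd, a membrane anchor of complex II. Tissue isoforms were far lower per kilobase, from 43.5 for Ndufa4l2 to 390 for Cox7a1. The assembly factor Sdhaf4 stood at 1043 per kilobase, the highest of its 13-gene group, and Sdhaf1 at 69.1, the lowest. By scaled counts alone Atp5b was the highest member, with a mean of 33346 over 4237 annotated exon bases. Annotated exon length can exceed that of a transcript, so the order per kilobase depends on the annotation.

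The subunit genes varied over the strains together. The level of the whole set, the mean of log2(scaled count + 1) over the 75 subunits, was lowest in BXD68, 0.37 below its mean over strains on the log2 scale. It was highest in BXD40, 0.50 above it, which makes a 1.83-fold range. BXD40, BXD36 and BXD21 were the highest strains, and BXD68, BXD16 and BXD28 the lowest. By complex, the range between the extreme strains was 1.82-fold for complex I, 1.43-fold for complex II, 1.92-fold for complex III, 2.11-fold for complex IV and 1.89-fold for complex V. BXD40 was the highest strain for complexes I, III, IV and V, and BXD21 for complex II.

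**Figure D1:**
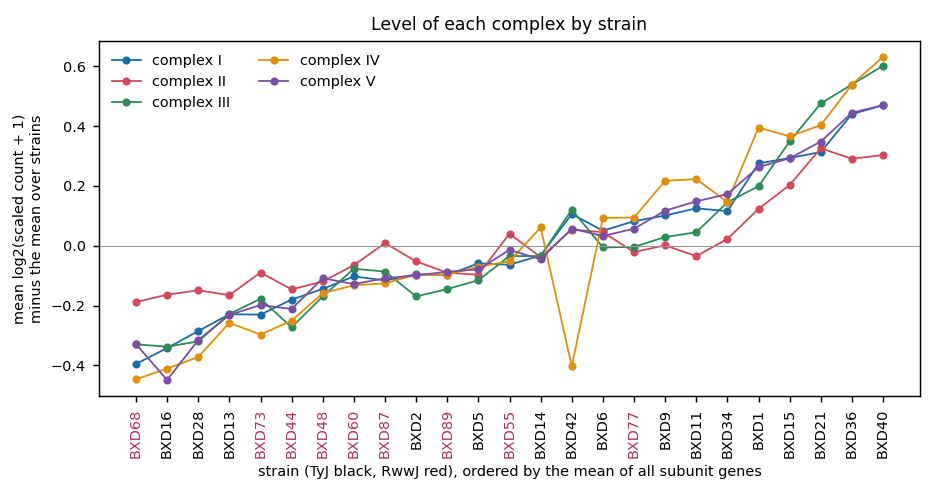
Mean log2(scaled count + 1) of each complex's subunit genes minus its mean over strains (y axis) in the 25 strains (x axis, TyJ names black, RwwJ names red), with 1 point per library. The lines climb together from BXD68 to BXD40, complex II over the narrowest range, and complex IV dips in BXD42, where Cox8a was at 159 scaled counts.

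Pairs of subunit genes had a median Pearson r of 0.789 over the 25 strains, with 2775 pairs. All pairs of the 16152 genes tested had a median of 0.0021, and 0.552% of them reached the median of the subunit pairs. Within complexes the median r was 0.798 for complex I, 0.827 for complex III, 0.833 for complex IV and 0.711 for complex V. Between complexes it was 0.787, and the standard errors of these medians, from leaving out each strain in turn, were 0.0466 to 0.0662. The medians of complexes I, III and IV lay above the value between complexes by less than their own errors, and that of complex V lay below it. All these medians come from the same strains, so their errors do not measure the differences between them. At each of the 25 points of a correlation, both values share a library and its scaling. No p is attached to these correlations. The mean levels of complexes I and V had r 0.988, rho 0.989, and r 0.983 without BXD36 and BXD40. Those of complexes II and IV had r 0.855, rho 0.794, and r 0.811 without BXD21 and BXD40. The value of complex IV is lowered by Cox8a in BXD42: without that gene its r was 0.994 with complex I and 0.921 with complex II.

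BXD40, BXD36 and BXD21 were the 3 highest strains at 0.50, 0.46 and 0.35 above the mean, and BXD15 and BXD1 followed closely at 0.30 and 0.27. Correlations were computed again without the highest 3. In the other 22 strains the range of the whole set was 1.60-fold. The median r was 0.704 within complex I, 0.151 within complex II, 0.652 within complex III, 0.820 within complex IV, 0.581 within complex V and 0.684 between complexes. Complex IV thus kept its value and lay above the value between complexes in this setting, and the others were lower than over all strains. Within the 9 RwwJ strains, which hold none of them, it was 0.582 in complex I, 0.538 in complex III, 0.720 in complex IV, 0.453 in complex V and 0.540 between complexes.

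**Figure D2:**
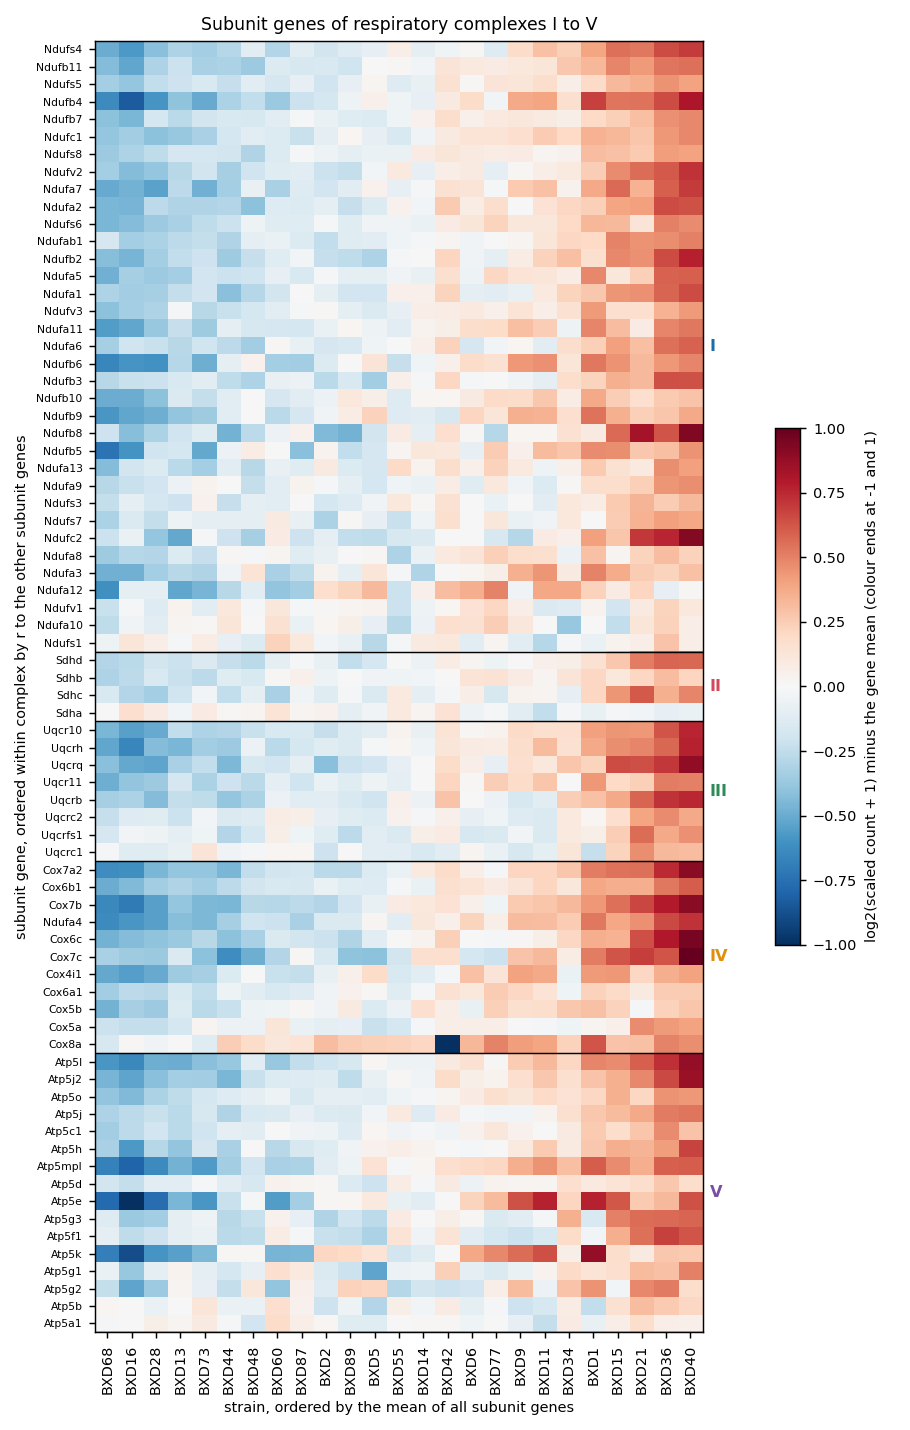
Difference of log2(scaled count + 1) from each gene's mean (colour, ending at -1 and 1) for 74 of the 75 subunit genes (rows, by complex, ordered by their correlation with the other subunits) in the 25 strains (columns, ordered by the mean of all subunits). Most rows run from blue to red, while Sdha, Ndufs1, Atp5a1 and Atp5b at the foot of their complexes stay pale, and Cox8a in BXD42 lies beyond the end of the colour scale.

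Many accessory and membrane subunits followed the set closely, and several catalytic subunits varied little and followed it loosely. Neither group was uniform. In complex I, Ndufs4, an accessory subunit of the electron input arm, ranged from 1734 scaled counts in BXD16 through a median of 2424 to 4179 in BXD40, and its r to the mean of the other subunits was 0.976. Ndufb4, a membrane arm subunit, ranged from 1098 through 1897 to 3427 in the same strains, with r 0.964. Both tracked the set closely. Ndufs1, which carries several of the iron-sulfur clusters of complex I, ranged only from 3640 through 4413 to 5420, with r 0.126. Ndufv1, which binds the flavin that accepts electrons from NADH, ranged from 4655 through 5510 to 6316, with r 0.336. Both core genes varied little and followed the other subunits only loosely. Other core subunits did follow the set, among them Ndufs8 with r 0.959, Ndufv2 with 0.958, Ndufs3 with 0.831 and Ndufs7 with 0.828. Accessory subunits could also follow loosely, as Ndufa10 did with r 0.214 and Ndufa12 with 0.480. Within complex I, Ndufb4 had the highest median r to the other subunits, 0.893, and Ndufs1 the lowest, 0.184.

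In complex III, the closest follower was Uqcr10, a small membrane subunit, from 2841 scaled counts in BXD16 through a median of 3940 to 7048 in BXD40, with r 0.988 to the other subunits of the chain. Uqcrh, the hinge protein that contacts cytochrome c1, ranged from 5229 through 8083 to 13974 in the same strains, with r 0.980. Uqcrc1, a large matrix-facing core subunit, ranged from 5330 in BXD1 through 6096 to 8615 in BXD21, with r 0.563, the lowest of complex III. Uqcrfs1, the Rieske iron-sulfur protein, lay between, with r 0.743.

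In complex IV, Cox7a2, Cox6b1 and Cox7b had r of 0.987, 0.986 and 0.984 to the other subunits. Cox7b, a small membrane subunit, spanned 4462 scaled counts in BXD16, a median of 7103 and 13674 in BXD40, a 3.06-fold range. Ndufa4 spanned 9740 in BXD68, 15511 and 25095 in BXD40, with r 0.973 and the highest median r to its own complex, 0.909. Cox4i1 and Cox5a, which enter the complex early in its assembly, had r of 0.862 and 0.820.

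In complex V, Atp5l and Atp5j2, small membrane subunits, had r of 0.983 and 0.978. Atp5e, a small subunit of the central stalk, had an SD of 0.50 on the log2 scale, the largest after Cox8a among the subunits. It stood at 2701 scaled counts in BXD16, a median of 5479 and 9305 in BXD1. Atp5k, another small membrane subunit, spanned 2759 in BXD16, 5305 and 9367 in BXD1, with r 0.696. Atp5g1 and Atp5g2, which encode the subunit of the rotating membrane ring, had r of 0.690 and 0.680. Atp5a1 and Atp5b, the alpha and beta subunits of the catalytic head, differed from these in both spread and order of strains. Atp5b ranged from 27021 through 33068 to 41071, with r 0.335, and Atp5a1 from 23852 through 28249 to 31887, with r 0.118. Over all 15 catalytic and core subunits the median r was 0.743 and the median SD 0.17. Over the other 60 subunits the medians were 0.927 and 0.29. As drawn, the core list holds Cox4i1, Cox5a and Uqcrc1, whereas Uqcrc2, with r 0.804, stands among the others. Without BXD21, BXD36 and BXD40 the core list stood at 0.475 and 0.13, and the others at 0.909 and 0.24. Exon length differed as well, with a median of 2239 bases in the core list and 1480 in the others, and its part in this difference was not tested.

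Complex II was the exception among the complexes, and in it Sdha ran against the rest. Sdha, the flavoprotein that oxidizes succinate, ranged from 8281 scaled counts in BXD11 through a median of 9727 to 11034 in BXD16, and its log2 SD of 0.09 was the smallest of the 75 subunits. Its r was negative with 71 of the 74 other subunits, with a median of -0.43. Without BXD21, BXD36 and BXD40 it was negative with 65, with a median of -0.38. Over all strains the exceptions were Ndufs1 at 0.529, Atp5a1 at 0.499 and Atp5b at 0.249, all large catalytic or core subunits. Since the subunits varied together, the 71 negative values are not 71 separate observations. To the mean of the other subunits, Sdha had r -0.52. Of all 16152 genes tested, 8043 had a negative r to the subunit mean. The iron-sulfur subunit Sdhb and the membrane anchors Sdhc and Sdhd followed the chain, with r of 0.916, 0.858 and 0.931 to the other subunits. They correlated with each other at 0.689 (Sdhb and Sdhc), 0.828 (Sdhb and Sdhd) and 0.882 (Sdhc and Sdhd). Against Sdha the same genes stood at -0.46, -0.41 and -0.33. Pairs with Sdha are 3 of the 6 pairs of complex II, whose median r was 0.179 with a standard error of 0.0626.

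Cox8a, a small membrane subunit of complex IV, was nearly absent from the library of BXD42. It stood at 159 scaled counts there, against a lowest value of 7085, a median of 9387.5 and a highest value of 12256 in the other 24 strains. BXD42 thus had 1.69% of the median of the others, a 59.0-fold difference. Among the 5595 genes with means of 1000 scaled counts or more, this gap between the lowest and the second lowest strain, 5.47 on the log2 scale, ranked first. The next were Sema4f in BXD36 at 2.95 and Txndc16 in BXD34 at 2.39, and the median gap was 0.05. With 1 library for the strain, the value has no replicate.

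The low value in BXD42 was limited to Cox8a among the subunits. All 74 other subunits lay inside the range of the other strains, and the 10 other complex IV subunits all lay above the median of the other strains. Ndufa4, for example, was at 15693 in BXD42, against 9740 to 25095 over all strains. The mean level of the set ranked BXD42 as 11 of 25 from the highest. Neighbouring genes on chromosome 19 were also in range: Otub1, next to Cox8a in gene order, stood at 4941 against 3704 to 5930 elsewhere, and Naa40, next on the opposite side, at 408 against 298 to 461. Without BXD42, the SD of Cox8a dropped from 1.19 to 0.20 and its r to the other subunits rose from 0.048 to 0.797. With Cox8a left out of the complex IV mean, that mean correlated with complexes I, II, III and V at 0.994, 0.921, 0.965 and 0.987. Cox8b, the isoform of heart and skeletal muscle, was at 57 scaled counts in BXD42 and between 7 and 320 over all strains.

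**Figure D3:**
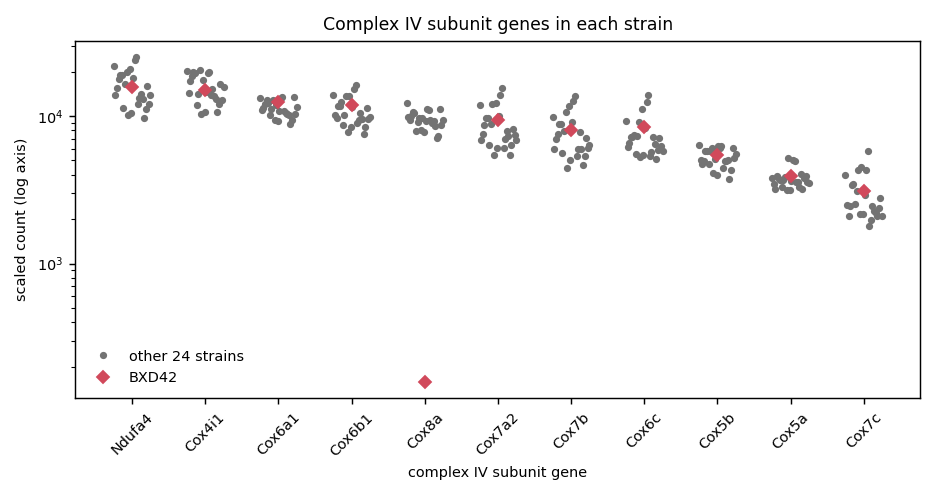
Scaled counts (y axis, log scale) of the 11 complex IV subunit genes (x axis), with 1 point per strain, grey for the other 24 strains and a red diamond for BXD42. The diamond lies within the grey points for 10 genes and at 159 for Cox8a, below a lowest grey point of 7085.

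Because the subunits moved together, the bases upstream of their transcription starts are shown for a few members. Uqcrh, Atp5k and Ndufa11, with r of 0.980, 0.696 and 0.912 to the other subunits, were chosen because they hold a match to a known regulator's motif. Uqcr10 followed it most closely and holds none, Sdha ran against it, and Cox8a was the gene low in BXD42. Each line gives the 120 bases that end directly before the start, on the gene's strand, from RefSeq with the build GRCm38.p6. Capitals mark matches to the core motif of NRF1 (CGCATGCG, its own reverse complement) or of the ETS factor GABPA (CCGGAAGT or ACTTCCGG).
Uqcrh, chr4:116075071-116075190, minus strand: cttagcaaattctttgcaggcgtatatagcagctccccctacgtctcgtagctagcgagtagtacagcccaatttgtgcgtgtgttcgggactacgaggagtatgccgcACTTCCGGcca
Atp5k, chr5:108434400-108434519, minus strand: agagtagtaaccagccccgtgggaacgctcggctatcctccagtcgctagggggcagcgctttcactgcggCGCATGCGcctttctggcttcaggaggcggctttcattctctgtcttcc
Ndufa11, chr17:56717642-56717761, plus strand: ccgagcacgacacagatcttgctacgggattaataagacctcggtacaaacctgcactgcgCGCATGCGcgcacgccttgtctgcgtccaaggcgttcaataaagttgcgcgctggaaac
Uqcr10, chr11:4704345-4704464, minus strand: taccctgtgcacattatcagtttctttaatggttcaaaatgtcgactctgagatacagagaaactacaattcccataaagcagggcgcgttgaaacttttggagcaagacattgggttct
Sdha, chr13:74350241-74350360, minus strand: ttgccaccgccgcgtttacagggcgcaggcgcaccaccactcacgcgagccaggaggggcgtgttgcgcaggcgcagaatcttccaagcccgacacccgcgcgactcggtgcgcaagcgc
Cox8a, chr19:7217617-7217736, minus strand: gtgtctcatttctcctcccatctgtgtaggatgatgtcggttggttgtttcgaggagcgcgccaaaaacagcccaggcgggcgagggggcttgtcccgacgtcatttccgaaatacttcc

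NRF1 and GABPA are transcription factors long studied as regulators of respiratory genes, and YY1 is another with reported roles there. Their motifs were searched on both strands in windows from 250 bases before to 50 bases after the start, which were at hand for 78 of the 94 members and 63 of the 75 subunits. The NRF1 core was found in 8 subunit windows (12.7%), against 3.51% of the 11968 tested genes with a window and 1.91% of all 27025 windows. The GABPA motif was found in 5 (7.94%), against 7.25% and 4%. The YY1 motif (AAGATGGC or GCCATCTT) was found in 9 (14.3%), against 4.24% and 2.88%. At least 1 motif was present in 21 of 63 subunit windows, in 10 of 32 for complex I, 0 of 3 for complex II, 3 of 5 for complex III, 2 of 9 for complex IV and 6 of 14 for complex V. Uqcr10, the closest follower of the set, had none of them. The GABPA match of Cox8a reaches past its start and so beyond the printed bases. A match is a description of the sequence, and the shares were not tested.

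The variation of the subunits was part of a wider pattern. The first principal component of the 16058 tested genes outside the set, 25.5% of their variance, had r 0.967 and rho 0.973 with the mean level of the subunits. In the 22 strains other than BXD21, BXD36 and BXD40, the same component had r 0.952 and rho 0.960 with it. Components computed anew in those 22 strains split this relation: the first, 14.6% of the variance, had an r of 0.312 in size, and the second, 13.8%, of 0.684. Of the 75 subunits, 60 (80%) had an r of at least 0.8 to the other subunits, against 5.91% of all genes tested. Without those strains the count was 48, against 3.71%. Genes outside the set could follow it as closely as members did. Among the closest were Pfdn4 (0.990) and Tbca (0.984), which encode chaperones of tubulin folding. Slirp (0.983) binds mitochondrial messenger RNA, and Naa38 (0.981) belongs to an N-terminal acetyltransferase. Tomm7 (0.980) is part of the mitochondrial import pore, Sf3b6 (0.978) belongs to the spliceosome, Pfdn1 (0.977) to the same chaperone as Pfdn4, and Mrpl20 (0.976) to the mitochondrial ribosome. Usmg5 (0.977) encodes an ATP synthase membrane subunit that the symbol rule did not take in.

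With the first component over all 25 strains regressed out of every gene, the median r fell to 0.249 over all pairs of subunits, beside 0.0034 over all pairs of genes. By complex it was then 0.267 in complex I, 0.0457 in complex II, 0.346 in complex III, 0.364 in complex IV and 0.211 in complex V, and 0.239 between complexes. With the mean of 254 other protein-coding genes under 1000 exon bases regressed out, which itself had r 0.895 with the subunit level, the median over subunit pairs was 0.488, beside 0.0022 over all pairs of genes.

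Gene length moved with this pattern. Across the 15548 annotated genes outside the set, exon length and r to the subunit level had a Spearman rho of -0.50. Across the 75 subunits it was -0.21. Both are correlations across genes, which are not independent replicates. Subunits stood above other genes of like annotated exon length: between 1000 and 2000 exon bases, the median r was 0.912 for 29 subunits and 0.427 for 1805 other genes. Between 4000 and 8000 exon bases it was 0.804 for 10 subunits and -0.13 for 5808 other genes. Those 10 subunits ran from -0.52 for Sdha (4126 bases) to 0.983 for Atp5l (6443 bases). Exon length counts every annotated exon of a gene, so it can exceed the length of a transcript, which was not measured.

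**Figure D4:**
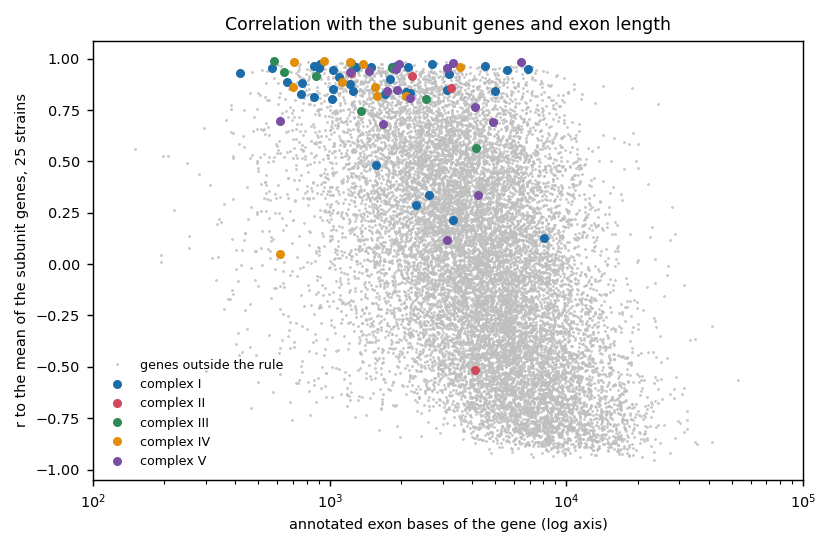
Pearson r of each gene to the mean of the subunit genes over 25 strains (y axis) against its annotated exon bases (x axis, log scale), with grey points for genes outside the set and coloured points for subunits by complex. Grey points drift downward with length (rho -0.50), and most subunits lie along the top edge, with Sdha at -0.52 as the lowest coloured point.

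Other mitochondrial genes did not all share the pattern. The assembly factors and related genes among the members had a median r of 0.732, and 5 of 13 reached 0.8. The highest were Sdhaf4, which helps assemble Sdha, at 0.947 and Ndufaf5, a complex I assembly factor, at 0.934, and the lowest was Atp5s at 0.457. Of 34 assembly factors under other symbols, 10 reached 0.8 and the median was 0.461. Of 12 genes for electron carriers and the cytochrome of complex III, 2 reached it, Cycs (cytochrome c) at 0.912 and Cyc1 at 0.824. In the citric acid cycle 0 of 13 did, with a median of 0.389. Among regulators of mitochondrial biogenesis 0 of 12 did, and their median of -0.01 covers values on both sides, from -0.79 to 0.760, with 6 of 12 below 0. In glycolysis 0 of 16 did, with a median of 0.081 and a range from -0.53 to 0.736. A list with no role in respiration, the core subunits of the proteasome, had 13 of 14 at or above 0.8 and a median of 0.877, or 0.748 without BXD21, BXD36 and BXD40. All genes tested had a median of 0.0028.

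Levels of some other cell types moved with the subunit level. The mean log2 level of 5 erythroid markers had r 0.628 and rho 0.652 with it, and these markers summed to between 6443 and 52991 scaled counts in TyJ and 8970 and 23795 in RwwJ libraries. For 6 macrophage markers r was 0.581 and rho 0.595, with sums of 2407 to 7844 and 2875 to 6564. For 5 satellite glia markers r was 0.580 and rho 0.523, with sums of 91497 to 184889 and 87150 to 135636. For 5 adipocyte markers r was 0.424 and rho 0.602, with sums of 731 to 6389 and 951 to 4391. For 7 mural cell markers r was 0.401 and rho 0.485, with sums of 8694 to 16263 and 9857 to 17514. None of these markers was at 0 in any library. The mural list was divided: Pdgfrb, Notch3 and Vtn had r of -0.25, -0.21 and -0.25, and the median of the 7 was 0.196. For 12 skeletal muscle markers r was 0.280, for 7 pan-neuronal markers 0.089, and for 6 markers of large-diameter neurons -0.42. The neuronal lists were divided as well. Of the pan-neuronal markers 4 of 7 were below 0, from -0.46 for Elavl4 to 0.733 for Uchl1. Of the large-diameter markers 5 of 6 were below 0, with Ntrk3 lowest at -0.77, whereas Pvalb was at 0.641. Spinal cord, myelinating Schwann cell, fibroblast and brown fat markers had r of 0.241, 0.194, 0.181 and 0.008. Of the fibroblast markers 1 of 6 was below 0, Fn1 at -0.55, and Lum was highest at 0.654. The part of cell composition in the subunit level was not tested.

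The spread of the subunits over strains exceeded that of all genes by less than its standard error. Their median SD was 0.28 on the log2 scale, with a standard error of 0.038, beside 0.25 over all genes tested. Without BXD21, BXD36 and BXD40 the median SD of the subunits was 0.22, with no value over all genes beside it. By annotated exon length, the median was 0.31 for subunits and 0.51 for other genes under 1000 bases. From 1000 to 2000 bases it was 0.29 and 0.34, and from 2000 to 4000 bases 0.21 and 0.25. From 4000 to 8000 bases the order was reversed, at 0.25 and 0.21. Above 8000 bases lay only Ndufs1, at 0.13 beside 0.22. The smallest SDs were those of Sdha at 0.09, Atp5a1 at 0.10, Ndufv1 at 0.12, and Atp5d and Ndufs1 at 0.13. The largest were those of Cox8a at 1.19, Atp5e at 0.50, Cox7b at 0.45, Ndufb4 at 0.45 and Atp5k at 0.44.

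The labelled comparison, RwwJ against TyJ strains, gave no called member. By limma with Benjamini-Hochberg adjustment, 0 of 94 members passed an adjusted p of 0.05, with a background of 0% of the 16152 genes tested. The lowest adjusted p of a member was 0.29. At an unadjusted p under 0.05, 49 of 94 members were lower in RwwJ strains, beside a background of 8.92% of all genes, and 0 were higher, beside 6.19%. The rank-sum test gave 42 and 0 at the same unadjusted threshold, and 0 after adjustment. In the mean, 90 of 94 members were lower in RwwJ, beside 8270 of all 16152 genes tested. The median difference of the subunits was -0.22 on the log2 scale, against -0.0047 over all genes tested. Members correlate strongly over strains, so these 49 genes do not amount to 49 separate observations. The count also depended on a few libraries: it was 15 without BXD21, BXD36 and BXD40, beside a background of 4.74%, and 27 without BXD68, beside 5.95%. Without BXD21, BXD36 and BXD40 the median difference of the subunits was -0.13. Over all strains, a list outside respiration showed a like shift. All 14 core genes of the proteasome were lower in RwwJ in the mean, with a median difference of -0.22. Of these, 11 had an unadjusted limma p under 0.05, and 0 passed after adjustment.

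The members of smallest p illustrate the sizes. Cox7c, a small complex IV subunit, had 2090 scaled counts in its lowest TyJ strain, a median of 3110 and a highest of 5794, and 1810, 2215 and 2795 in RwwJ strains. The groups overlapped, and all 9 RwwJ strains lay below the TyJ mean. The difference was -0.51 on the log2 scale (SE 0.15, limma adjusted p 0.29). Ndufa4 stood at 10124, 17893 and 25095 in TyJ and at 9740, 13063 and 15894 in RwwJ strains, a difference of -0.41 (SE 0.14, limma adjusted p 0.29). The differences of Sdhaf4, Ndufb11 and Ndufv3 were -0.42, -0.32 and -0.23 with the same adjusted p, and 9 of 9 RwwJ strains lay below the TyJ mean for each. These genes were chosen by their small p, so the side on which the strains lay is no separate evidence. The 4 members with a higher mean log2 level in RwwJ were Sdha at 0.05 (SE 0.04), Atp5b at 0.04 (SE 0.07), Ndufs1 at 0.01 (SE 0.06) and Cox8a at 0.24 (SE 0.47). None of them passed the test. Cox8a is placed there by BXD42: without that strain the TyJ mean was 9718 ± 1256 scaled counts (SD, n = 15), above the RwwJ mean of 8886 ± 1216 (SD, n = 9).

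Tissue isoforms replace a common subunit in particular cell types, and their r to the common subunits ran from 0.062 for Cox6b2 to 0.80 for Cox4i2. Cox6a2 and Cox8b are the forms of heart and skeletal muscle, Cox7a1 is found in muscle and brown fat, Cox6b2 is best known from testis, Cox4i2 is an oxygen-responsive form of Cox4 found in lung and vessels, and Ndufa4l2 is a relative of Ndufa4 induced by low oxygen. Cox6a2 ranged from 13 scaled counts in BXD68 through a median of 60 to 358 in BXD60. Cox8b ranged from 7 in BXD68 through 92 to 320 in BXD1, and Cox7a1 from 102 in BXD68 through 197 to 394 in BXD21. Cox6a2 and Cox8b thus varied more than any common subunit, with SDs of 1.41 and 1.49 on the log2 scale.

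The 6 isoforms were correlated with scores of skeletal muscle, brown fat and mural cells (mean log2 of their markers), 18 relations in all, with 100000 permutations and Benjamini-Hochberg adjustment. The muscle score has a gap: BXD13, BXD15, BXD68 and BXD73 lie below the other 21 strains, so these relations are given within the 21. Of the 18 relations, 6 passed by Pearson r. Here too the isoform and the score of a strain share a library and its scaling. Cox6a2 had r 0.911 and rho 0.863 with the muscle score, each with an adjusted permutation p of 9e-05, which rests on the smallest p these permutations can give. Without BXD16 and BXD60, its r was 0.879. In the 4 strains of low muscle score Cox6a2 was at 13 to 17, below all others, where it was at 34 to 358. Cox8b had r 0.784 (adjusted permutation p 9e-05) and rho 0.808 (0.00018), and r 0.829 without the same strains. It stood at 7 to 17 in the low strains and 22 to 320 in the others. Cox7a1 had r 0.525 (adjusted permutation p 0.043) and rho 0.565 (0.025), and r 0.721 without the same strains. Its values in the low strains, 102 to 274, overlapped those in the others.

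Mural cells wrap small vessels, and 2 isoforms followed their markers over all 25 strains by both r and rho. Cox6b2 had r 0.747 with the mural cell score (adjusted permutation p 0.00024), rho 0.788 (9e-05), and r 0.692 without BXD1 and BXD15. Cox4i2 had r 0.521 (adjusted permutation p 0.027), rho 0.584 (0.011), and r 0.534 without them. The r of Cox4i2 to the common subunits was higher, at 0.80, and the mural cell score had r 0.401 with their level. These relations were not separated. Cox7a1 passed by rho only, with r 0.440 (adjusted permutation p 0.063) and rho 0.468 (0.049). Ndufa4l2, at r 0.439 and an adjusted permutation p of 0.063, did not pass. Cox8b also had r 0.545 with the brown fat score (adjusted permutation p 0.023), rho 0.537 (0.024), and r 0.725 without BXD1 and BXD89, though only 2 of 4 brown fat markers were measured.

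**Figure D5:**
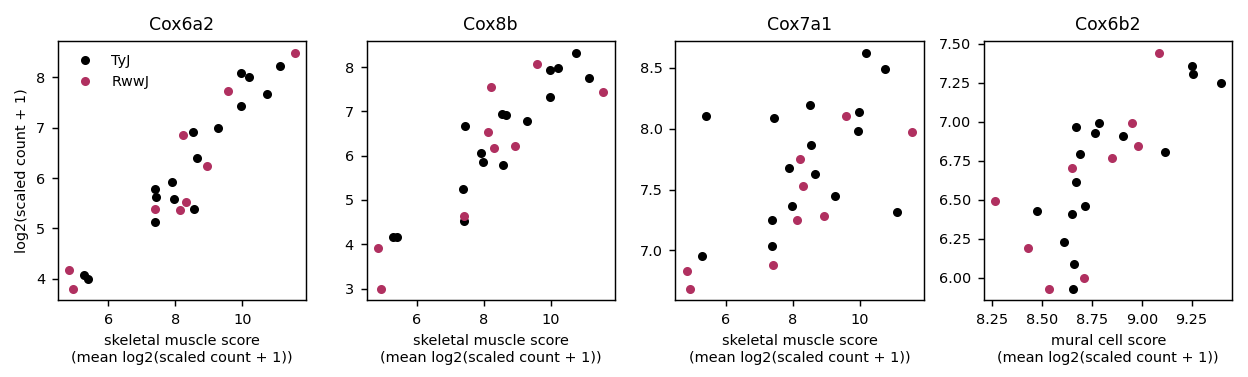
Log2(scaled count + 1) of Cox6a2, Cox8b and Cox7a1 against the skeletal muscle score, and of Cox6b2 against the mural cell score (x axes, mean log2 of the markers), with 1 point per strain, TyJ black and RwwJ red. Cox6a2 and Cox8b climb with the muscle score, and the 4 strains at its low end hold 13 to 17 and 7 to 17 scaled counts of them.

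These isoforms were minor parts of their pairs. Of the summed scaled counts of Cox6a2 and its common partner Cox6a1, Cox6a2 made up a median of 0.495% and at most 3.43%, in BXD60. Cox7a1 made up a median of 2.29% of its sum with Cox7a2, Cox6b2 1.07% of that with Cox6b1, Ndufa4l2 0.297% of that with Ndufa4, and Cox4i2 0.249% of that with Cox4i1. Cox8b made up 26.4% of its sum with Cox8a in BXD42 and at most 2.75% in any other strain. Cox8b itself was at 57 there, inside its range, beside 159 for Cox8a.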

How the data were processed

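RNA-seq libraries (TruSeq RNA v2, per the labels' protocols) of dorsal root ganglia were deposited as a gene table with 1 column per strain. The submitters' processing notes name HTSeq, TopHat2 2.0.9 and CASAVA 1.8.0, and the builds mm9 and NCBIM37. The deposited values are treated as a score: whole numbers that the authors scaled, with an upper quartile of 1478 to 1478.25 in each library. The scaling tool and the counting of reads that match several places, which matters for subunits with processed pseudogenes, are not stated in these sources. No count model was fitted.

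Symbols and exon lengths came from GENCODE M21 (GRCm38), which named 15697 of 16220 identifiers, and promoter windows from RefSeq. Genes whose mean reached 10, 16152 in all, were analysed as log2(value + 1), a scale that understates fold changes of low genes. RwwJ was set against TyJ by limma 3.58.1, R 4.3.3 (trended prior, two-sided, Benjamini-Hochberg at 0.05), tested on simulated data. A member's r is to the mean of the other subunits. Two-sided permutation tests used 100000 resamples. With 1 library per strain, p-values measure the spread between strains. Members and lists were chosen with earlier results of these data known. Genes named are the core subunits, the isoforms, the extremes of SD, r and level per kilobase, and the smallest p in each direction. A few genes that this rule names are not reported here.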

Additional observations from a re-analysis of the deposited data

How the results depend on the processing

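With 0 of 94 members called, every alternative run kept 0, also array weights, which called 6 of all genes. Members lower in RwwJ at an unadjusted p numbered 49, 39 to 49 under other scalings, pseudocount, filter, weights and the rank-sum test, 27 to 61 leaving out 1 strain, and 15 without BXD21, BXD36 and BXD40. Under median-ratio scaling, the background over all genes was 1302 higher and 1140 lower, against 1000 and 1440. Leaving out 1 strain gave median correlations of 0.766 to 0.811 in complex I, 0.149 to 0.202 in II, 0.789 to 0.849 in III, 0.809 to 0.845 in IV, 0.668 to 0.729 in V and 0.756 to 0.798 between complexes. In RwwJ strains only they were 0.582, 0.101, 0.538, 0.720, 0.453 and 0.540 in the same order. With the first principal component regressed out they were 0.267, 0.0457, 0.346, 0.364, 0.211 and 0.239. With the short-gene mean regressed out, complexes I, III, IV and V and pairs between complexes stood at 0.456, 0.715, 0.414, 0.488 and 0.499. Without BXD21, BXD36 and BXD40, complexes I, III, IV and V and pairs between complexes stood at 0.704, 0.652, 0.820, 0.581 and 0.684, and the median SD was 0.221 against 0.280. Complex II was at 0.0749 under scaling to the same total, and complex III at 0.664 by Spearman. The cause was not tested. Within the 21 strains above the gap of the muscle score, the correlations of Cox4i2 and Ndufa4l2 with it turned to -0.0993 and -0.0140, from 0.313 and 0.0758, none past the threshold. No paired analysis was possible because the strains share no replicate numbers. The depth behind the scaled values is unknown, so low isoform counts have no counting interval. The alternatives on principal component, short genes, the 3 highest strains and the muscle gap were chosen after seeing the data.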
